A study of Mus musculus with 6 samples.

Results

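The genes described here make, break down and sense retinoic acid in mouse beige adipocytes. They were taken by gene name from the deposited count table: the retinol dehydrogenase Rdh10, the retinal reductase Dhrs3, the retinal dehydrogenases Aldh1a1, Aldh1a2 and Aldh1a3, the retinoic acid hydroxylase Cyp26b1 and the receptors Rara, Rarb and Rarg. Of these 9 names, 8 were analysed, among 13962 genes in all, and all 8 passed the filter on low counts; Aldh1a2 was not analysed here. The set was put together with earlier results of this same contrast known, in which Cyp26b1 stood among the larger rises, so the differences and adjusted p-values of these 8 genes are given as a description.

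Beige adipocytes arise in white fat and can burn fuel for heat as brown fat does, and TLE3 is a Groucho-type protein that represses transcription through the factors it binds. The cells were preadipocytes from the inguinal white fat of C57BL/6 mice, immortalized with the large T antigen, and every library carried the genotype TLE3F/F CreERT2, that is, floxed Tle3 alleles and a Cre recombinase that tamoxifen activates, whose promoter the labels do not give. The labelled knockout group (n = 3) received 500 nM 4-hydroxytamoxifen on day 4 of differentiation for 24 hours, and the control group (n = 3) received ethanol. All cells had been differentiated with insulin (20 nM), T3 (1 nM), isobutylmethylxanthine (0.5 mM), dexamethasone (0.5 uM), indomethacin (0.125 mM) and rosiglitazone (1 uM), of which insulin, T3 and rosiglitazone were kept on, and were harvested on day 10. An effect of tamoxifen or of Cre itself cannot be told apart from one of the deletion, and the sources do not say whether replicates came from separate cultures, so p-values measure spread between libraries that may be technical.

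Total counts ran from 14606228 to 19294632 per library. Tle3 itself was at 286.9, 288.9 and 294.2 CPM in the libraries labelled knockout, against 151.4, 151.3 and 152.1 CPM in controls (CPM: counts scaled to a common library size, after TMM scaling). Tle3 was thus 1.91-fold higher in the libraries labelled knockout (edgeR adjusted p 3.54e-07), and the reason was not tested. The counts are given per gene, not per exon, and which exons are floxed is not known here. The counts of Tle3 do not check the labels. Every direction below is therefore that of the libraries labelled knockout relative to controls. Adipocyte markers were present in all libraries, with Adipoq at a mean of 683.5 CPM in the libraries labelled knockout and 580 CPM in controls, and the beige and brown marker Ucp1 at 102.9 CPM in the libraries labelled knockout and 70.93 CPM in controls. The sum of the 3 measured macrophage and leukocyte markers lay between 3.655 and 5.393 CPM over all libraries.

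Retinoic acid is made from vitamin A in a pair of steps. Retinol is first oxidised to retinal, a reversible step in which RDH10 works forward and DHRS3 backward, and retinal is then oxidised irreversibly by the ALDH1A enzymes. CYP26 enzymes clear retinoic acid by hydroxylation. Inside the nucleus it binds the receptors RARα, RARβ and RARγ, which sit on DNA as heterodimers with retinoid X receptors and recruit co-repressors without ligand and co-activators with it. In fat, retinoids are known to restrain the differentiation of preadipocytes and to raise Ucp1 in brown adipocytes.

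The promoters of a pair of these genes are shown because Rarb is a textbook target of its own receptors and Cyp26b1 is the gene with the largest difference. RefSeq promoter sequences (build GRCm38.p6, another build than the mm9 used for the counts) were found for 7 of the 9 names. Capitals mark, in Rarb, a DR5 retinoic acid response element, searched on both strands as 2 copies of a core in the same orientation with 5 bases between them, the core being AGGTCA or the same with G as the first letter, T as the third, or both, and in Cyp26b1 the letters TATAAA.
Rarb, minus strand, chr14:16575477-16575726: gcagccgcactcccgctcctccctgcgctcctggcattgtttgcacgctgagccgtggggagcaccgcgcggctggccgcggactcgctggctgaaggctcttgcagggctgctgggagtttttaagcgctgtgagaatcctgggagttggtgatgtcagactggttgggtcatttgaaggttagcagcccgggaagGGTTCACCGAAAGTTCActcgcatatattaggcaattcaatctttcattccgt
Cyp26b1, minus strand, chr6:84593811-84594060: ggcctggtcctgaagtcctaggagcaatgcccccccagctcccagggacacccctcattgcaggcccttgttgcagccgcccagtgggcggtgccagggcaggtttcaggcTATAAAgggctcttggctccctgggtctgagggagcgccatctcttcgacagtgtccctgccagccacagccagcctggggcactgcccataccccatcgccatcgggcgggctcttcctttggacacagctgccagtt

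Each window holds the 250 bases before the annotated start. The DR5 element of Rarb lay from -53 to -37 relative to that start, and such an element was found in 29 of 32851 promoter windows of the same length (0.0883%). Rarb was the only one of the 7 genes with it in this window. TATAAA lay from -139 to -134 in Cyp26b1 and was found, on either strand, in 12.4% of all windows. These matches describe the letters only.

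Cyp26b1 and Aldh1a3 were higher in the libraries labelled knockout, Dhrs3 was slightly higher, and Rdh10 was lower. Aldh1a1 and the 3 receptors did not pass the test. Counted by edgeR's quasi-likelihood test with Benjamini-Hochberg adjustment over all 13192 tested genes at a threshold of 0.05, 3 of 8 rose and 1 fell; over all tested genes 12.3% were called, 6.91% higher and 5.44% lower. The groups did not overlap in CPM for 6 of the 8 genes, 4 higher and 2 lower, and for 31.8% of all tested genes, 16% higher and 15.8% lower. The median log2 fold change was 0.12 for the 8 genes and -0.002 for all tested genes. Because these genes were gathered with the contrast known, nothing is read from either share.

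**Figure D1:**
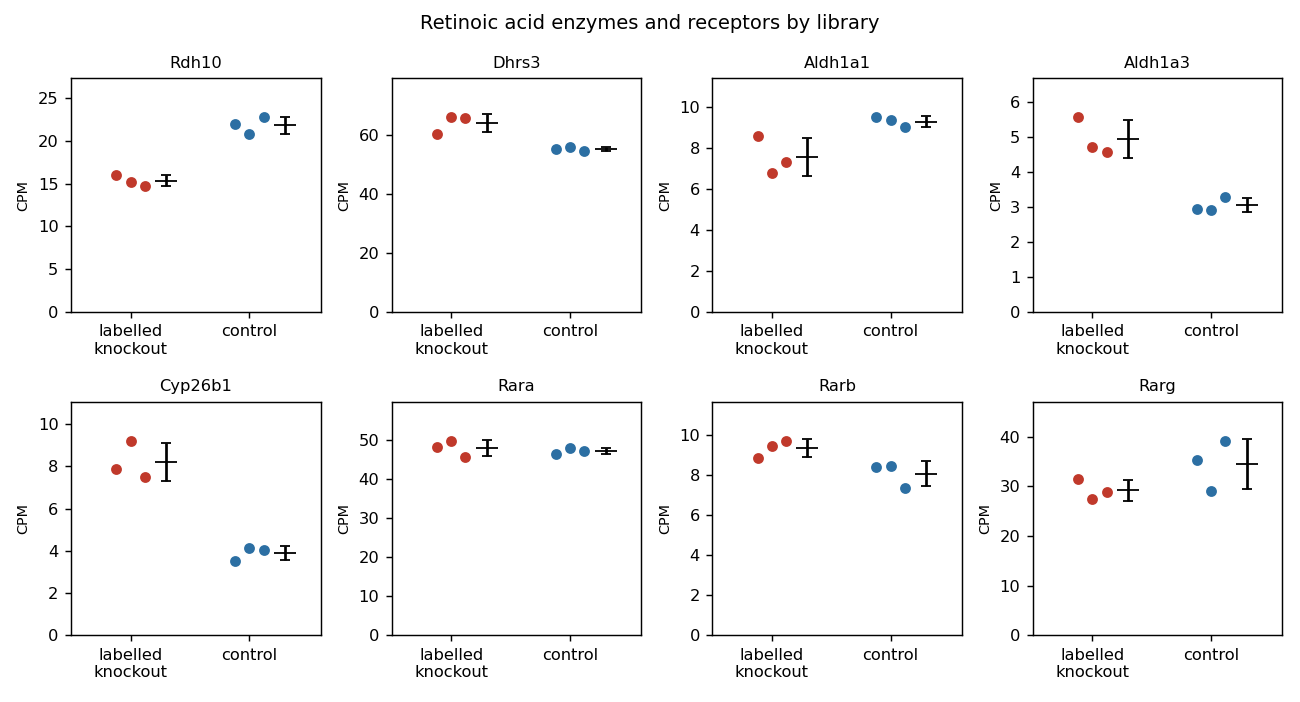
CPM of each of the 8 genes in the 3 libraries labelled knockout (red) and the 3 controls (blue), with the mean and SD beside them. The points of the groups are fully apart for Rdh10, Dhrs3, Aldh1a1, Aldh1a3, Cyp26b1 and Rarb, and they overlap for Rara and Rarg.

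The enzymes of the reversible step moved in opposite directions. Rdh10, which oxidises retinol to retinal, stood at 16.02, 15.21 and 14.73 CPM in the libraries labelled knockout, against 21.94, 20.78 and 22.77 CPM in controls. All 3 libraries labelled knockout were below the lowest control. Rdh10 fell by 0.51 on the log2 scale (SE 0.0732, 95% interval -0.67 to -0.35; edgeR adjusted p 0.00181), and 2.82% of all tested genes had a lower log2 fold change. Dhrs3, which returns retinal to retinol, stood at 60.23, 65.82 and 65.56 CPM in the libraries labelled knockout, against 54.98, 55.64 and 54.47 CPM in controls. Here every library labelled knockout was above the highest control, and the controls lay within little more than 1 CPM of each other. Dhrs3 rose 1.16-fold (log2 0.21, SE 0.0491, 95% interval 0.11 to 0.32; edgeR adjusted p 0.0173). The call for Dhrs3 was lost without knockout 2 (adjusted p 0.0681), knockout 3 (0.0914) or control 1 (0.0523). Per kb of annotated exon, the level of Dhrs3 over that of Rdh10 was 5.34, 6.15 and 6.33 in the libraries labelled knockout, against 3.56, 3.81 and 3.40 in controls. This ratio is a quotient of the same values and adds no test.

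Beside the fall of Rdh10, markers of less differentiated cells were mixed. The summed CPM of 9 measured preadipocyte and fibroblast markers ran from 14920 to 15740 in the libraries labelled knockout and from 17330 to 19880 in controls, and no measured marker was at 0 in any library. Most of this sum came from the matrix genes Fn1, Col1a1 and Col3a1. Fn1 alone averaged 7194 CPM in the libraries labelled knockout and 9829 CPM in controls. Of the 9 markers Pdgfra, Thy1 and Fn1 fell and Dlk1 rose, with 5 not called. Over all tested genes 6.91% were called higher and 5.44% lower. Among controls, control 3 had both the highest marker sum and the highest Rdh10, and control 2 the lowest of both, whereas among the libraries labelled knockout, knockout 3 had the highest marker sum and the lowest Rdh10. Their part in the result was not tested. In these bulk samples, fewer cells of a type and less RNA per cell cannot be told apart.

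The retinal dehydrogenases differed from each other. Aldh1a3 was at 5.549, 4.701 and 4.554 CPM in the libraries labelled knockout, against 2.932, 2.91 and 3.267 CPM in controls. Every library labelled knockout was above every control, although the values rest on 89, 68 and 68 counts against 52, 43 and 64, where counting error alone is 15.2% in the lowest library. Aldh1a3 rose 1.62-fold (log2 0.70, SE 0.146, 95% interval 0.37 to 1.02; edgeR adjusted p 0.0116). Aldh1a1 was at 8.542, 6.775 and 7.299 CPM in the libraries labelled knockout, against 9.474, 9.341 and 8.984 CPM in controls. These groups did not overlap either, but the difference did not pass the threshold after adjustment (log2 -0.29, 95% interval -0.54 to -0.05; unadjusted p 0.0227, edgeR adjusted p 0.112).

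Aldh1a1 has a close mouse paralog, Aldh1a7, and its counts are uncertain for that reason. The coding sequences of the pair are 91.6% identical, with a shared run of 100 bases, while those of Aldh1a1 and Aldh1a3 are 68.2% identical and share no run above 17 bases. Aldh1a7 averaged 174.2 ± 10.2 CPM in the libraries labelled knockout and 168.1 ± 13.9 CPM in controls (SD, n = 3 each; edgeR adjusted p 0.634), far above Aldh1a1, which averaged 7.539 ± 0.908 CPM in the libraries labelled knockout and 9.266 ± 0.253 CPM in controls. How reads that fit both genes were counted is not given in the sources used here.

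The share of Aldh1a3 in the sum of Aldh1a1 and Aldh1a3 was higher in the libraries labelled knockout. Its size depended on the gene lengths used. Aldh1a7 is left out of this sum, although it averaged 84.34 CPM per kb in the libraries labelled knockout and 81.34 in controls. The share is thus not one of all measured genes named Aldh1a. Per kb of annotated exon, Aldh1a1 and Aldh1a3 together were at 2.93, 2.39 and 2.47 CPM per kb in the libraries labelled knockout, against 2.55, 2.52 and 2.53 CPM per kb in controls. The share of Aldh1a3 in that sum was 41.0%, 42.6% and 40.0% in the libraries labelled knockout, against 24.9%, 25.0% and 28% in controls. With the gene lengths that the authors' rounded FPKM imply, 2.03 to 2.06 kb for Aldh1a1 in place of 4.937 kb, the mean share was 18.7% to 26.6% in the libraries labelled knockout and 10.3% to 15.3% in controls, and the mean sum was 4.52 to 5.04 and 5.03 to 5.39 CPM per kb in the same groups; these ranges are what the rounding allows. Aldh1a1 was the more abundant of the pair, per kb, in every library.

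Cyp26b1, the hydroxylase that clears retinoic acid, had the largest difference of the 8 genes. It stood at 7.857, 9.195 and 7.5 CPM in the libraries labelled knockout, against 3.496, 4.129 and 4.033 CPM in controls. The lowest library labelled knockout was well above the highest control, with 126, 133 and 112 counts against 62, 61 and 79. Cyp26b1 rose 2.1-fold (log2 1.07, SE 0.132, 95% interval 0.78 to 1.36; edgeR adjusted p 0.000777). For its CPM, permuting the 6 libraries over the groups gave a two-sided exact p of 0.1. Any gene whose groups do not overlap has this value, and groups of 3 cannot reach a lower one. The set was gathered with the rise of Cyp26b1 known, so neither this p nor its rank among called genes is read as support. Among all called genes the median absolute log2 fold change was 0.30, 95% had a smaller absolute change than Cyp26b1, and 21 genes rose by more. The level of Cyp26b1 relative to Aldh1a1 plus Aldh1a3, per kb, was 0.501, 0.719 and 0.569 in the libraries labelled knockout, against 0.256, 0.306 and 0.298 in controls. With the lengths implied by the authors' FPKM its mean was 0.333 to 0.504 in the libraries labelled knockout and 0.146 to 0.212 in controls. The summed CPM of 8 beige and brown adipocyte markers was also higher, between 840 and 980 in the libraries labelled knockout and between 513.3 and 609 in controls. Cidea made up the largest part of this difference, with means of 457.7 CPM in the libraries labelled knockout and 222.5 CPM in controls. Of the 8 markers 6 rose, beside 6.91% of all tested genes, Prdm16 and Dio2 were not called, and none was at 0 in any library. Their part in the result was not tested.

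**Figure D2:**
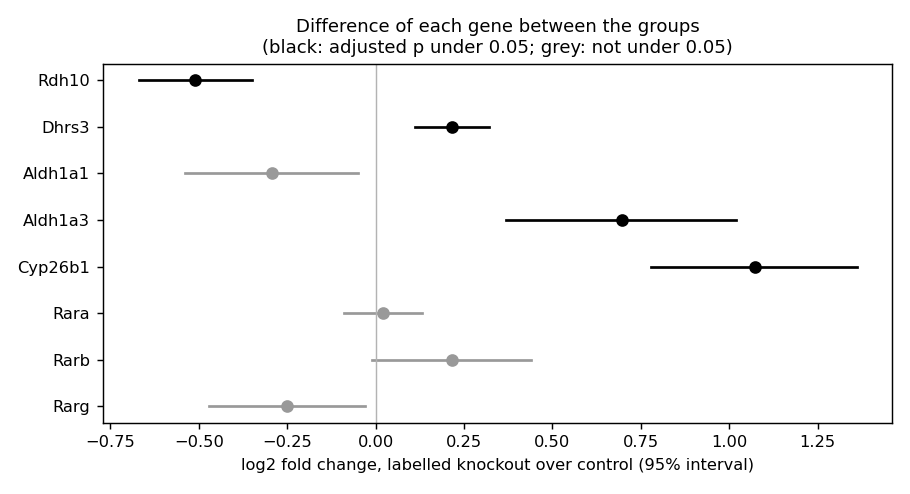
Log2 fold change of each gene, libraries labelled knockout over controls, with its 95% interval from the edgeR fit over all genes. Cyp26b1 lies farthest from 0 at 1.07, Rdh10 is at -0.51, and the interval of Rara runs from -0.09 to 0.13.

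None of the 3 receptor genes was called by edgeR, DESeq2 or limma-voom, and 1, Rarg, had an unadjusted p under 0.05. Rara was at 48.07, 49.71 and 45.67 CPM in the libraries labelled knockout, against 46.47, 47.92 and 47.17 CPM in controls. The groups overlapped fully, and the 95% interval of the log2 difference ran from -0.09 to 0.13 (log2 0.02, edgeR adjusted p 0.84), narrower than those of Rarb and Rarg. Rarg was at 31.43, 27.38 and 28.79 CPM in the libraries labelled knockout, against 35.41, 29.17 and 39.15 CPM in controls. The controls were spread more widely than the libraries labelled knockout, and control 2 lay within their range (log2 -0.25, 95% interval -0.47 to -0.03; edgeR adjusted p 0.124). Rarg was called lower without control 2 (log2 -0.35, adjusted p 0.0128). Across the controls Rarg followed the order of the preadipocyte and fibroblast marker sum, lowest in control 2 and highest in control 3. Among the libraries labelled knockout both were lowest in knockout 2, but Rarg was highest in knockout 1 and the marker sum in knockout 3. The part of those markers was not tested.

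Rarb, whose promoter carries the DR5 element shown above, was at 8.854, 9.472 and 9.71 CPM in the libraries labelled knockout, against 8.402, 8.461 and 7.351 CPM in controls. The groups did not overlap, but the difference did not pass the test (log2 0.22, 95% interval -0.01 to 0.44; edgeR adjusted p 0.202). Its interval allows up to 0.44 on the log2 scale, so a rise the size of that of Dhrs3 could not be told from none. Exons of Rarb overlap those of Top2b, a topoisomerase gene on the opposite strand, by 1793 bases in GENCODE M21. Top2b averaged 219.9 ± 5.85 CPM in the libraries labelled knockout and 217.7 ± 2.22 CPM in controls (SD, n = 3 each), and the strand setting of the counting is not given, so the count of Rarb is uncertain. For the other 7 genes no exon overlap with another annotated gene was found.

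Per length, the order of the receptors was the same in both groups. Rara made up 54.9%, 58.1% and 54.9% of the 3 receptors in the libraries labelled knockout, against 51.8%, 56.5% and 50.5% in controls, and the groups overlapped. Rarg made up 36.8%, 32.8% and 35.5% in the libraries labelled knockout, against 40.4%, 35.2% and 43.0% in controls, and these overlapped too. Rarb made up 8.38%, 9.17% and 9.67% in the libraries labelled knockout, against 7.77%, 8.27% and 6.53% in controls, and these did not overlap. With the lengths implied by the authors' FPKM the mean share of Rarb was 13.4% to 15.3% in the libraries labelled knockout and 11.1% to 12.8% in controls. Their sum was 20.1, 19.6 and 19.1 CPM per kb in the libraries labelled knockout, against 20.6, 19.4 and 21.4 CPM per kb in controls.

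**Figure D3:**
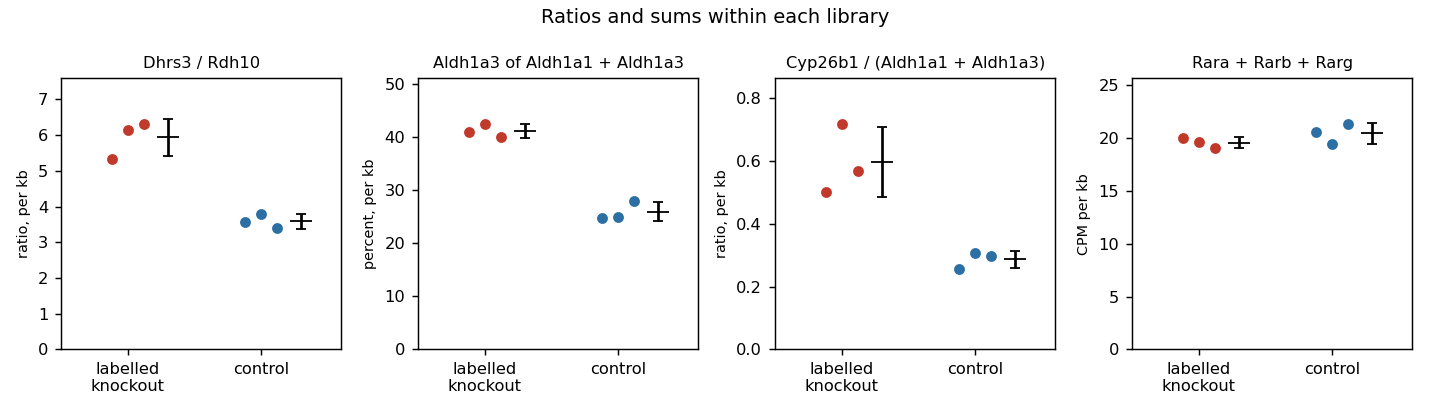
Ratios, shares and sums of CPM per kb of exon within each library, with the mean and SD beside the points of the libraries labelled knockout (red) and controls (blue). The groups are apart for Dhrs3 over Rdh10, for the Aldh1a3 share and for Cyp26b1 over Aldh1a1 plus Aldh1a3, and they overlap for the sum of the 3 receptors.

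Ranked by level per kb of annotated exon in controls, the order ran from Dhrs3 (18.8 ± 0.201 CPM per kb) through Rara (10.81 ± 0.167), Rarg (8.115 ± 1.18), Rdh10 (5.247 ± 0.24), Aldh1a1 (1.877 ± 0.0513), Rarb (1.533 ± 0.119) and Cyp26b1 (0.7261 ± 0.0637) to Aldh1a3 (0.6577 ± 0.0433; SD, n = 3). Only the last neighbours of that order, Cyp26b1 and Aldh1a3, overlapped in range among controls. In the libraries labelled knockout Dhrs3, Rara, Rarg and Rdh10 held the same places, at 21.82 ± 1.08, 10.95 ± 0.465, 6.853 ± 0.482 and 3.683 ± 0.157 CPM per kb. Below them Rarb (1.775 ± 0.0839), Cyp26b1 (1.529 ± 0.167) and Aldh1a1 (1.527 ± 0.184) overlapped in range, and Aldh1a3 was lowest at 1.069 ± 0.116 CPM per kb. The places of the lower genes depended on the lengths used. In the FPKM that the authors deposited as whole numbers, Aldh1a1 was at 4, 3 and 4 in the libraries labelled knockout, against 5, 5 and 4 in controls. Rarb was at 3, 3 and 3 in the libraries labelled knockout, against 3, 3 and 2 in controls, and Cyp26b1 at 2, 2 and 2, against 1, 1 and 1 in controls. On that scale Aldh1a1 and Cyp26b1 were apart in both groups, and Aldh1a1 lay beside Rdh10, at 4, 4 and 3 in the libraries labelled knockout, against 5, 5 and 6 in controls. The exon union was 2.4 times the implied length for Aldh1a1 and at least 1.56 times for Rarb, so levels per kb of exon are low for both by comparison. The fold changes between groups do not use a length.

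**Figure D4:**
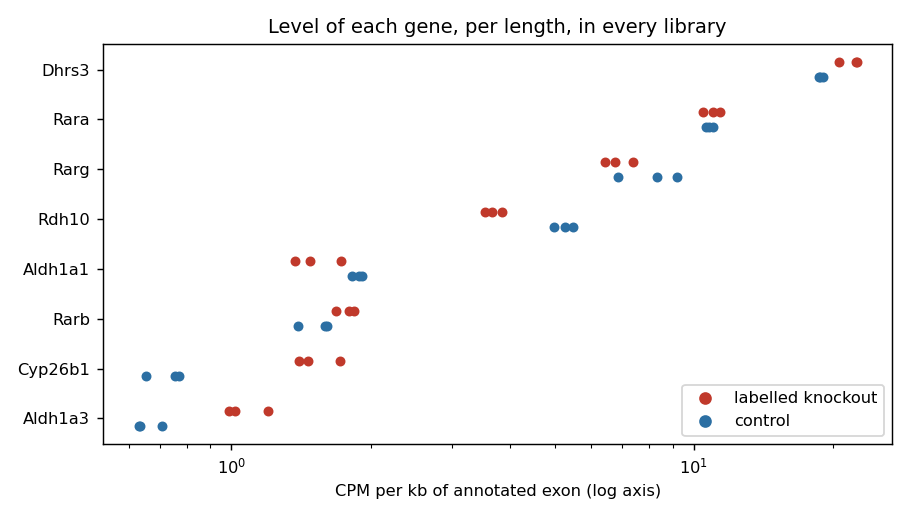
Level of each gene in CPM per kb of annotated exon, on a log axis, with 3 points for the libraries labelled knockout (red, above) and 3 for controls (blue, below), in the order of the control means. Dhrs3, Rara, Rarg and Rdh10 are the highest in both groups; with the lengths implied by the authors' FPKM, Aldh1a1 would lie near Rdh10 and above Cyp26b1 in both.

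The genes whose log2 CPM followed the called members most closely over the 6 libraries (Pearson r, among genes averaging 5 CPM or more) are given as a description, since the groups alone raise such values. For Cyp26b1 they were Nop10 (r = 0.997), Lsm3 (0.996) and 2810002N01Rik (0.994). For Rdh10 they were Sfrp4 (0.996), a secreted Wnt modulator that averaged 24.31 CPM in the libraries labelled knockout and 51.27 CPM in controls, Lpar1 (0.994) and Tbc1d2b (0.993). Aldh1a3 was followed most closely by Ak1 (0.991), Rab24 (0.987) and Bbs10 (0.985), and Dhrs3 by D3Ertd254e (0.995), Mrps34 (0.994) and Fads2 (0.994). These are the highest values among 10578 or 10579 genes compared for each member. Of the genes named, 2810002N01Rik, Rab24, Bbs10, D3Ertd254e and Mrps34 were not called (edgeR adjusted p 0.0968 to 0.259), and the others were.

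Other genes of retinoid biology were taken from a list of 93 names grouped by role, of which 64 were measured and 59 tested; the others were not analysed here or fell below the filter. Of the 59, 11 rose and 7 fell by edgeR's adjusted p, and their median difference was 0.06 on the log2 scale. Over all tested genes 6.91% were called higher and 5.44% lower, which is also the background for the counts by role below. The list was written with earlier results of these data known. The genes that rose numbered 5 without knockout 2, 3 without knockout 3, 6 without control 1 and 5 without control 3, and those that fell numbered 11 without control 2.

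**Figure D5:**
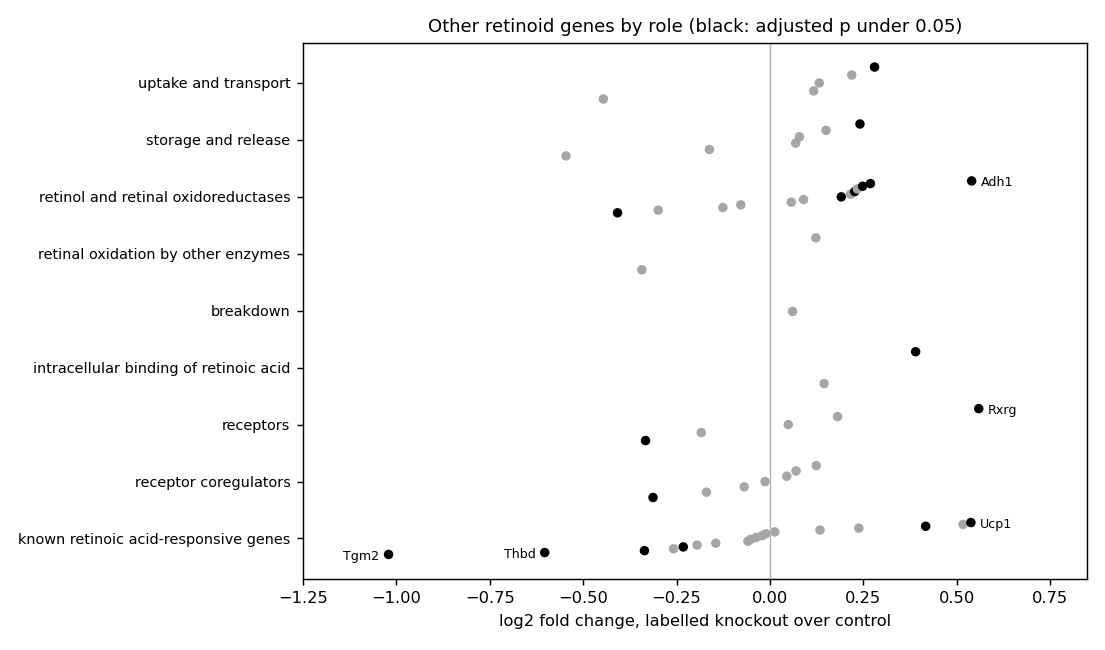
Log2 fold change, libraries labelled knockout over controls, of the 59 other tested retinoid genes by role, with black points for adjusted p under 0.05 and grey points for the rest. Named points are called genes with an absolute log2 fold change of at least 0.5, of which Tgm2 is lowest at -1.02.

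Retinoid X receptors, the DNA partners of the RARs, differed among themselves. Rxra was at 92.28, 99.35 and 89.73 CPM in the libraries labelled knockout, against 116.8, 123.1 and 114.7 CPM in controls, with all 3 libraries labelled knockout lower. Rxra fell by 0.33 on the log2 scale (SE 0.0503; edgeR adjusted p 0.00234). Rxrg was at 10.72, 13.9 and 15 CPM in the libraries labelled knockout, against 8.402, 10.09 and 8.474 CPM in controls, and the groups did not overlap. Rxrg rose 1.47-fold (SE of log2 0.132; edgeR adjusted p 0.0202), a call that was lost without knockout 2, knockout 3, control 1 or control 3 (adjusted p 0.0539 to 0.103). Rxrb averaged 69.79 ± 1.89 CPM in the libraries labelled knockout and 67.45 ± 1.57 CPM in controls (SD, n = 3 each; edgeR adjusted p 0.53). Of 5 tested receptors in the list 1 rose and 1 fell, and of 7 coregulators 1 fell, Nrip1, a ligand-dependent co-repressor of nuclear receptors (log2 -0.31, edgeR adjusted p 0.00251).

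Among 13 other tested oxidoreductases of retinol and retinal, 5 rose and 1 fell, beside 6.91% higher and 5.44% lower over all tested genes. Adh1, an alcohol dehydrogenase that can oxidise retinol, was at 108.9, 111.4 and 125.1 CPM in the libraries labelled knockout, against 81.66, 87.79 and 68.61 CPM in controls, and rose 1.45-fold (edgeR adjusted p 0.00255). Rdh13, a mitochondrial member of the family, rose 1.2-fold (adjusted p 0.00434), Adh5 1.19-fold (0.011), Akr1b10 1.17-fold (0.0215) and Rdh5 1.14-fold (0.0306). Dhrs9 was at 76.45, 81.93 and 84.58 CPM in the libraries labelled knockout, against 102.9, 113.1 and 106.5 CPM in controls, and fell by 0.41 on the log2 scale (adjusted p 0.00112). The enzyme genes named in this group thus stood on both sides of 0, and most act on other substrates too. The call was lost for Rdh5 with DESeq2 (adjusted p 0.112) and without any library but knockout 1 (0.056 to 0.119), for Adh5 without knockout 3 (0.0669), and for Akr1b10 without knockout 2, knockout 3, control 1 or control 3 (0.0512 to 0.103). Exons of Rdh5 overlap those of Bloc1s1 on the same strand by 720 bases, so its count is uncertain, and so is that of Akr1b10, which has close mouse paralogs.

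Of 5 tested genes of uptake and transport, 1 rose, the fatty acid and lipoprotein receptor Cd36 (1.21-fold, edgeR adjusted p 0.0455), beside 6.91% called higher over all tested genes. Rbp4, the plasma carrier of retinol that fat cells secrete, averaged 195.6 ± 26.0 CPM in the libraries labelled knockout and 168.3 ± 35.6 CPM in controls (SD, n = 3 each; adjusted p 0.323). The retinol importer Stra6 was set aside by the filter, with at most 0.6859 CPM in any library.

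For the proteins that bind retinoic acid in the cytoplasm, Crabp1 averaged 9.272 ± 0.917 CPM in the libraries labelled knockout and 8.321 ± 0.929 CPM in controls (SD, n = 3 each; edgeR adjusted p 0.464). Fabp5, which carries fatty acids and can pass retinoic acid to PPARδ, was at 138.3, 152.0 and 156.8 CPM in the libraries labelled knockout, against 124.5, 120.4 and 96.63 CPM in controls, and rose 1.31-fold (adjusted p 0.0134; 0.0732 without knockout 3). Of 6 tested genes of retinyl ester storage and release, 1 rose, the lipase gene Lipe (1.18-fold, adjusted p 0.0368). Calls for Cd36 and Lipe were both lost without knockout 2, knockout 3, control 1 or control 3 (adjusted p 0.0612 to 0.174). The aldehyde oxidases Aox1 and Aox3 had edgeR adjusted p of 0.16 and 0.567, and Cyp1b1, the 1 other tested gene of the breakdown group, had an adjusted p of 0.747. The names Crabp2, Lrat, Cyp26a1 and Cyp26c1 were not analysed here.

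Genes known to respond to retinoic acid in other cells did not move together. Of 18 tested, 2 rose and 4 fell, beside 6.91% higher and 5.44% lower over all tested genes. The median difference of the 18 was -0.04 on the log2 scale. Tgm2, which encodes the cross-linking enzyme tissue transglutaminase, was at 244.6, 279.0 and 276.4 CPM in the libraries labelled knockout, against 577.2, 557.9 and 488.1 CPM in controls. That fall of 1.02 on the log2 scale (SE 0.0696; edgeR adjusted p 1.5e-05) was the largest in the list. Thbd, the thrombin receptor thrombomodulin, was at 169.8, 145.1 and 143.4 CPM in the libraries labelled knockout, against 196.4, 219.4 and 280.0 CPM in controls, and fell by 0.60 on the log2 scale (adjusted p 0.00679). Egr1 (log2 -0.34, adjusted p 0.0111) and Tnfaip2 (log2 -0.23, adjusted p 0.0233) fell as well, while Ucp1 (1.45-fold, adjusted p 0.00241) and Hoxa4 (1.33-fold, adjusted p 0.0332) rose. Some of the 8 genes described above, Rarb among them, are also genes of this kind. They are left out of these 18, which are therefore not a full count of such genes. Of the 8 counted above, 3 rose (Cyp26b1, Aldh1a3 and Dhrs3) and 1 fell (Rdh10). The call was lost for Hoxa4 with DESeq2 (adjusted p 0.078) and without knockout 1, knockout 2, knockout 3 or control 3 (0.0813 to 0.107), for Egr1 without knockout 3 (0.068), and for Tnfaip2 without knockout 2, knockout 3, control 1 or control 3 (0.0534 to 0.117). Exons of Tgm2 overlap those of Rprd1b on the opposite strand by 370 bases, and those of Lipe, Adh1, Hoxa4 and Tnfaip2 overlap annotated antisense transcripts by 918, 136, 255 and 314 bases, so these counts too depend on the strand setting.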

How the data were processed

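Poly(A) RNA of 6 libraries was sequenced after a stranded library kit, per the labels' protocols. The deposited table holds, per the file headers, whole-number read counts for each gene and FPKM that the authors rounded to whole numbers, handled as a score and used as a check alone. Novoalign 2.8, Picard, DESeq2 and the build mm9 are named in the submitters' processing notes, without roles or order; the read counter, its annotation and its strand setting are not given. Reads shared by near-identical or overlapping genes are therefore uncertain.

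Counts were tested with edgeR 4.0.16 in R 4.3.3: the package's expression filter by group left 13192 of 13962 genes, libraries were scaled by TMM, and the quasi-likelihood test compared the groups with no other term. The Benjamini-Hochberg adjustment ran over all tested genes, with a threshold of 0.05. The SE is the log2 fold change over the square root of F. Depth ran from 14606228 to 19294632 counts per library, and the biological coefficient of variation was 5.25%. CPM used TMM-scaled library sizes, and CPM per kb the union of GENCODE M21 exons or, chosen after the data were seen, the lengths that the authors' rounded FPKM imply with these library totals. No library repeated another of its group (chi-square per degree of freedom from 2.97 to 7.81 between their counts). The scripts were tested on simulated data. Alternatives were size factors from DESeq2's method, DESeq2 1.42.0, limma-voom (limma 3.58.1), no filter, a replicate block and leaving out each library.

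The members, the gene lists and the markers were chosen with earlier results of these data known. Named were all members, every called gene of the wider retinoid list, a fixed set of its receptors and carriers whatever their p, and the 3 genes closest to each called member; Aox1, Aox3, Cyp1b1, Aldh1a7, genes with overlapping exons and the marker genes were named after their values were seen. A single gene of the wider list is not reported here.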

Additional observations from a re-analysis of the deposited data

How the results depend on the processing

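Under the 11 alternatives, 87 of 88 log2 fold changes of the 8 genes kept their sign and 84 their side of the threshold; the exception in sign was Rara, whose value ran from -0.01 to 0.05 without 1 library. Cyp26b1 (0.98 to 1.13), Aldh1a3 (0.60 to 0.76) and Rdh10 (-0.54 to -0.48) were called without any 1 library and under the other 5 alternatives. Dhrs3 ran from 0.19 to 0.26 and Rarg from -0.35 to -0.15 without 1 library, where the calls changed as given above. Members that fell numbered 1 to 2, wider genes that rose 3 to 13 and that fell 5 to 11, all genes that rose 332 to 1025 and that fell 289 to 870, with over 1.5 times fewer of both without knockout 2, knockout 3 or control 1, and fewer falls without control 3; a fit with fewer libraries has less to test with. Of 242 values of the 22 named wider genes, 207 kept their side.

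Replicate numbers did not pair the libraries (correlation of deviations between same-numbered libraries -0.11, 0.33 and 0.06), and not every library correlated best with its own number. Between differently numbered libraries it ran from -0.41 (knockout 2 with control 3) to 0.42 (knockout 1 with control 3). With the replicate block the log2 fold change of Cyp26b1 was 1.07, and 3 members rose and 1 fell. Gene lengths implied by the authors' FPKM, added after the data were seen, moved the levels of Aldh1a1 and Rarb and the share of Aldh1a3 by over 1.5 times, as given above. No scaling moved the median of all genes by 0.1 or more. Cyp26b1, Aldh1a3, Aldh1a1 and Rarb rest on at most 176 counts per library, which limits what could be detected for them.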
